A study of Mus musculus with 6 samples.

Results

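In differentiating C2C12 cells, 98 of 18194 genes measured stood at a peak on day 0, just after the switch to differentiation medium, with lower levels both in growth medium before it and on day 2 after it. The genes were chosen from the array values themselves. Each gene was read by the probe set with the highest mean over 6 arrays, and was kept when its day 0 level was at least 8 on the log2 scale and at least 1.5-fold above growth medium and above day 2. Of the 12294 genes at 8 or more on day 0, 104 (0.846%) met these limits, and 6 of them, Col18a1, Gap43, Hey1, Heyl, Nefl and Slc14a1, were left out by name. Ifitm1, Ppp2r2b and Mcpt8 had the largest peaks, and the members range over proteases and other secreted proteins, adhesion molecules and receptors, signalling and cytoskeletal proteins, and enzymes.

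C2C12 is a line of mouse myoblasts, the precursors of muscle fibres. Such cells divide in rich medium, and once they are crowded and serum is lowered they stop dividing, align, switch on contractile genes and fuse. Adhesion molecules and receptors for ligands on neighbouring cells act in the step before fusion, and contractile proteins accumulate as fusion goes on.

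Parental cells were sampled in growth medium with 10% fetal bovine serum, and after the switch at confluence to 2% horse serum on day 0, day 2 and day 4. Stable transfectants were sampled on day 0: shRp58 cells, with a hairpin vector against the transcriptional repressor Rp58 (now Zbtb18), and control-vector cells, whose labels name a LacZ vector in one place and a control sh in another. For these lines Lipofectamine 2000 was used and G418 selection (500 µg/ml) lasted 2 weeks, and whether they are pools or clones is not stated. Every group is a single array, so differences carry no replicate error, no test was run, and precision is limited by the array number. Levels are log2 values, differences are between log2 levels of 2 arrays, and levels of different genes are not compared. The targeted gene Zbtb18 read 11.16 in shRp58 cells and 11.69 in control-vector cells, and 11.18, 11.88, 12.86 and 13.06 in the parental course from growth medium through days 0, 2 and 4. The 8 myogenic markers examined lay between 9.93 and 14.48 on the parental arrays, and the 4 endothelial and 3 adipocyte markers measured did not exceed 7.34. Markers of other cell types were at 8 or more on day 0 in 2 of 4 smooth muscle genes (among them Acta2, up to 14.62 in the course), 2 of 4 fibroblast genes (Dcn, up to 12.26), 2 of 2 Schwann cell genes (Erbb3, up to 12.64), 2 of 4 neuron genes, 1 of 3 osteoblast genes and 1 of 3 leukocyte genes, and their part in the results was not tested. In RNA of a whole culture, a larger share of cells with a transcript and more transcript per cell cannot be told apart.

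Promoter windows from RefSeq (GRCm38.p6, 250 bases before to 50 bases after a transcription start) are shown for 4 genes that carry the main patterns: Ifitm1 with the largest peak, Mcpt8 and Gzme from one protease cluster, and Itga4, which was high on day 0 and again on day 4. Capitals mark E-boxes (CANNTG), the letters that factors of the MyoD family bind.
Ifitm1, chr7:140967826-140968125 on the plus strand: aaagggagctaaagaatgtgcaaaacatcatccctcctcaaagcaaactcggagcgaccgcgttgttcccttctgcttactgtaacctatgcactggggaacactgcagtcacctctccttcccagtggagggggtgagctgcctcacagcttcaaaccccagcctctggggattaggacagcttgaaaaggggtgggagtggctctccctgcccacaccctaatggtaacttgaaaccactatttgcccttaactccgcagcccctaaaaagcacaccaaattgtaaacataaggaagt
Mcpt8, chr14:56085148-56085447 on the minus strand: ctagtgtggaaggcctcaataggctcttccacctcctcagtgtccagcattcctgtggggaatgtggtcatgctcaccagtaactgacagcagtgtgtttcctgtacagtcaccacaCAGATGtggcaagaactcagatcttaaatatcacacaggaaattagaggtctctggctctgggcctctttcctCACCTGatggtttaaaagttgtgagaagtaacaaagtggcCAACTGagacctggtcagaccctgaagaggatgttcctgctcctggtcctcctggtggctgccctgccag
Gzme, chr14:56120576-56120875 on the minus strand: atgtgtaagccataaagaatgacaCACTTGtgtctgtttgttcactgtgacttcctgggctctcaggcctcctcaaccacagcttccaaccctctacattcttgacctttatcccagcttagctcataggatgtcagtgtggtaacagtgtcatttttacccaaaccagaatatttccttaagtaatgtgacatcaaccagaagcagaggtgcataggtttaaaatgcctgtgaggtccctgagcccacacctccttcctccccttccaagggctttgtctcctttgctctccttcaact
Itga4, chr2:79255176-79255475 on the plus strand: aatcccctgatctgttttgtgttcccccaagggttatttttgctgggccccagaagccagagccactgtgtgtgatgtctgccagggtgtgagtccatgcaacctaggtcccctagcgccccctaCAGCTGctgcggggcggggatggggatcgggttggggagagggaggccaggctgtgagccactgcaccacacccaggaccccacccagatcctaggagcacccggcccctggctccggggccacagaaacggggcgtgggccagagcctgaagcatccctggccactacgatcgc

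The Mcpt8 window held 3 E-boxes, those of Gzme and Itga4 held 1 each, and that of Ifitm1 held 0. Of all members, 76 had windows in the table, 109 in number, and both strands were searched. E-boxes were in 63.3% of member windows and in 72.3% of all 32851 windows of this length. The E-box form CAGCTG was in 18.3% of member windows and in 16.3% of all windows. ACATCTG, the core letters known for Zbtb18, which overlap an E-box, were in 3.67% of member windows (those of Glipr2, Mcpt8, Nhsl1 and Septin9) and in 4.43% of all. The letters TATAAA were in 7.34% of member windows against 13.6% of all, the letters CCAAT in 29.4% against 37.4%, and the AP-1 letters TGANTCA in 5.5% against 7.81%. These are matches of letters in a window and say nothing of binding.

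Of the 12294 genes at 8 or more on day 0, 11.5% were at least 1.5-fold above growth medium and 8.88% at least 1.5-fold above day 2, which all members are by choice. The peak height, the smaller of these 2 differences, had a median of 0.70 over the members and reached 1.95, and 10 members had one of at least 1, a 2-fold peak. The fall to day 2 exceeded the rise over growth medium in 51 members and was smaller in 47. Just inside the limit were Btbd2, Stc1 and Plcb3, with peak heights of 0.5877, 0.5878 and 0.5881, and just outside were Cd80, Rabggta and Abhd8, with 0.5846, 0.5829 and 0.5827.

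The size of the gene set depended on the scaling of the arrays. The median of genes with a mean of at least 8 was 10.26 in growth medium, 10.47 on day 0, 10.40 on day 2 and 10.32 on day 4, so bright genes as a group read highest on day 0. After quantile normalization within the parental arrays 50 of the 98 members still met the rule, among them the 25 with the largest peak heights. The mirror image, a day 0 level at least 1.5-fold below both neighbours with both at 8 or more, was found in 33 genes as deposited and in 51 after quantile normalization. Before names were left out, the peaks were 104 as deposited and 55 after quantile normalization, and 0 of the trough genes had a left-out name.

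**Figure D1:**
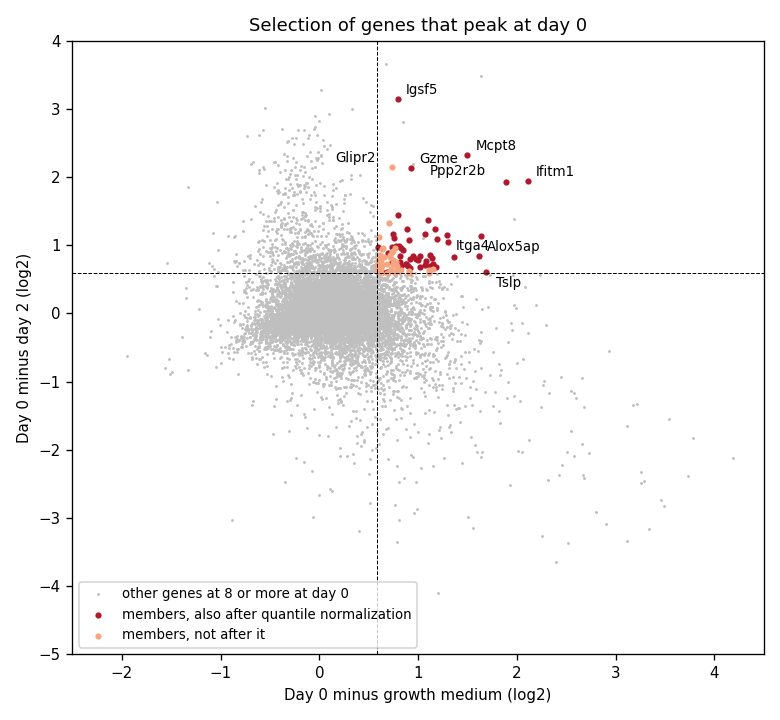
Day 0 minus growth medium (x axis, log2 difference) and day 0 minus day 2 (y axis, log2 difference) for the 12294 genes at 8 or more on day 0, 1 point per gene, with dashed lines at 1.5-fold. The 98 members lie in the upper right corner, and the 50 that also met the rule after quantile normalization are drawn apart from the other 48.

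Among secreted proteins and matrix genes, 11 members had a median peak height of 0.77. In the order growth medium, day 0, day 2 and day 4, Mcpt8, a serine protease known from mouse basophils, read 9.26, 10.76, 8.44 and 9.10. Gzme, granzyme E, known from cytotoxic lymphocytes, read 9.22, 10.15, 8.02 and 7.90 in the same order. Both were highest on day 0 and below growth medium on day 2. The 2 genes lie on chromosome 14 in a run of protease genes, with Ctsg between them. Gzmd, the neighbour of Gzme, read 8.04, 7.996, 5.71 and 5.24, level up to day 0 and low from day 2, while Gzmc, Gzmf, Gzmg and Gzmn did not exceed 6.28 in the parental course and Gzmb stayed between 7.88 and 8.12. Granzyme genes are alike in sequence, and how far their probe sets read each other was not tested. Of 3 leukocyte markers measured, Ptprc read 5.58, 5.43, 5.54 and 5.80, Itgam 6.75, 6.28, 6.67 and 6.70 and Cd3e 10.29, 9.75, 9.87 and 9.92. Of the 3, 1 was at 8 or more, Cd3e, and the part of leukocytes in the protease values was not tested.

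Slpi, a secreted inhibitor of leukocyte elastase, read 9.17, 10.80, 9.67 and 9.46 in the order of the course, and Lrrc17, a secreted leucine-rich repeat protein, 10.98, 12.08, 10.71 and 10.31. Slpi stayed above growth medium on day 4 and Lrrc17 ended below it. Dkk2, a modulator of Wnt signalling, read 8.30, 9.07, 8.08 and 7.11, and Pgf, a ligand of the VEGF receptor Flt1, 9.55, 10.43, 9.71 and 9.27. Tslp, a cytokine, took another course with 6.69, 8.38, 7.77 and 8.43: it was dim in growth medium, dipped on day 2 and was back at its day 0 level on day 4. The others of this group were Olfml2b, Emilin2, Ecm1 and Stc1, with peak heights of 0.59 to 0.77.

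The 12 surface receptors, ligands and adhesion molecules had a median peak height of 0.66. Ifitm1, an interferon-induced membrane protein that limits virus entry, read 10.46, 12.57, 10.62 and 10.16 along the course, a day 0 level 4.31-fold above growth medium and 3.85-fold above day 2. Its neighbours on chromosome 7 read 12.39, 13.33, 12.78 and 12.86 (Ifitm2) and 13.22, 13.88, 13.81 and 13.57 (Ifitm3). Both were also higher on day 0 than in growth medium but stood closer to their day 0 level on day 2, and how far probe sets of this family read each other was not tested. Ifitm1 is not among the 19 listed interferon-induced genes, of which 8 were at 8 or more on day 0. Of these 8, 1 was at least 1.5-fold above growth medium, against 11.5% of the 12294 genes. That far above day 2 were 0, against 8.88%. With 8 genes these shares cannot be told apart from those of all genes. At least 1.5-fold below day 2 were 3 of the 8, against 5.92%. An interferon response was not tested.

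Itga4, the integrin alpha 4 chain, read 8.65, 9.94, 8.80 and 9.89 along the course, so day 4 was close to day 0 with a dip between them. Its other bright probe set read 7.20, 8.97, 7.49 and 8.16, with the same dip and a smaller return. Jam2, a junctional adhesion molecule needed for myoblast fusion in zebrafish, read 11.58, 12.19, 11.07 and 11.40, and its 4 other probe sets were highest on day 0 relative to both neighbours as well. Igsf5, a tight junction protein, read 9.79, 10.59, 7.44 and 7.32, with a fall to day 2 of 8.84-fold and a rise over growth medium of 1.73-fold. Its peak was thus mostly a loss after day 0. Notch3, a receptor for ligands on neighbouring cells, read 11.60, 12.74, 11.93 and 11.60, and its second probe set 9.36, 10.75, 9.77 and 9.19. S1pr3, a receptor for sphingosine 1-phosphate, read 9.61, 10.79, 10.11 and 8.05, and Robo1, a receptor for Slit proteins, 9.68, 10.30, 9.56 and 8.71. Notch3 returned to its growth medium level by day 4, and S1pr3 and Robo1 ended below theirs. The others were Adgrg6, Il10rb, Adgre5, Sorcs2 and Efna4, with peak heights of 0.63 to 0.76.

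The 18 signalling and small GTPase proteins had a median peak height of 0.63. Ppp2r2b, a regulatory subunit of protein phosphatase 2A, read 7.84, 9.74, 7.81 and 6.97 along the course, 3.72-fold above growth medium on day 0. Its second probe set read 7.18, 7.40, 7.29 and 7.19, dim and nearly flat, so the peak rests on 1 probe set. Pag1, a membrane adaptor that binds the kinase Csk, read 9.37, 10.26, 9.02 and 8.04, while 2 of its other probe sets read 9.38, 9.06, 9.21 and 9.23 and 8.90, 8.81, 9.13 and 8.90 and had no peak. Tbc1d4, a Rab regulator in glucose transporter traffic, read 7.96, 8.70, 7.95 and 7.27, but its other probe set read 8.39, 8.44, 8.14 and 8.14, nearly level between growth medium and day 0. The others were Rab3d, Rab7b, Net1, Prkag2, Dgka, Dennd2a, Eef2k, Cdk14, Plekha2, Rasa4, Traf5, Arap1, Ralb, Pde5a and Plcb3, with peak heights of 0.59 to 0.78. Their other probe sets at 8 or more on day 0 had peak heights of 0.18 and 0.02 for Rab3d and 0.80 and 0.12 for Pde5a. They had 0.54 and 0.16 for Eef2k, 0.44 and 0.16 for Cdk14 and 0.80 and 0.41 for Plekha2. For Rab7b, Prkag2, Dennd2a and Ralb the values were 0.31, 0.68, 0.58 and 0.49.

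The 10 cytoskeletal members had a median peak height of 0.71. Map2, a microtubule protein best known from dendrites, read 9.26, 10.56, 9.51 and 9.25 along the course, and its 2 other probe sets at 8 or more on day 0 had lower peak heights, 0.18 and 0.46. Tppp3, which promotes tubulin polymerization, read 11.33, 12.18, 11.25 and 10.58, and Dync1i1, an intermediate chain of the dynein motor, 10.48, 11.84, 11.02 and 10.80. These 3 proteins act on microtubules and had the largest peaks of the group. Of the actin proteins, the profilin Pfn2 stood 1.02 above growth medium and 0.69 above day 2, and Arpc4 of the Arp2/3 complex 0.73 and 0.65. After quantile normalization within the parental arrays the peak height of Arpc4 was 0.15, the lowest of all members. The others were Cdc42ep5, Septin9, Nhsl1, Rsph3a and Coro1b, with peak heights of 0.59 to 0.75, and 5 of the 10 met the rule after quantile normalization.

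The 14 enzymes and transporters had a median peak height of 0.70. Gchfr, which regulates the first enzyme of tetrahydrobiopterin synthesis, read 11.33, 12.52, 11.43 and 11.44 along the course, a single high point over a level base. Pfkp, the platelet form of phosphofructokinase, read 10.92, 12.03, 11.17 and 11.29, and a second probe set 9.38, 11.03, 9.88 and 10.21. Pdk1, a kinase that turns off pyruvate dehydrogenase, read 9.95, 10.93, 10.14 and 9.88. Of its other bright probe sets 1 read 9.13, 10.49, 9.62 and 9.40, with a like peak, and 1 read 8.44, 9.84, 9.58 and 9.74, with little fall after day 0. Alox5ap, which presents arachidonic acid to 5-lipoxygenase, read 10.08, 11.70, 10.86 and 9.32, and Cda, cytidine deaminase, 9.45, 10.15, 8.82 and 7.88. Alox5ap and Cda went on falling between day 2 and day 4. Pafah1b3, a catalytic subunit of platelet-activating factor acetylhydrolase, read 10.37, 11.17, 9.73 and 9.48. The others were Cnp, Atp2b1, Rdh5, Abca7, Galnt4, Slc38a6, Aldh9a1 and St3gal2, with peak heights of 0.59 to 0.79.

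The 10 nuclear, chromatin and RNA-binding proteins had a median peak height of 0.62, and 3 of them met the rule after quantile normalization, Xrcc5, Rbpms and Celf5. Xrcc5, the Ku80 protein of DNA end joining, read 10.51, 11.53, 10.68 and 10.50 along the course. Meis2, a homeobox factor, read 11.03, 11.78, 10.88 and 10.32, and its 3 other probe sets also had a day 0 peak past 1.5-fold. The others were Rbpms, Ilf2, Pold4, Hr, Celf5, Ldb1, H2az2 and Pias3, with peak heights of 0.60 to 0.73.

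The remaining 23 members have other or less known roles and a median peak height of 0.73. Fbxl2, an F-box protein of a ubiquitin ligase, read 8.66, 9.83, 8.60 and 9.98 along the course, and Tspyl1 10.16, 11.08, 10.41 and 11.29. Both were highest on day 4. Clca3b read 7.10, 8.17, 7.01 and 6.78, Ccdc85b 8.90, 9.80, 8.73 and 8.90 and Proser2 7.25, 8.08, 7.12 and 7.34. Clca3b and Proser2 were below 8 outside day 0, where signals are dim. Plac8, a small cysteine-rich protein, read 8.46, 9.41, 8.57 and 8.31, Tor4a of the torsin family 10.67, 11.49, 10.65 and 9.99, and latexin, Lxn, an inhibitor of carboxypeptidases, 10.54, 11.35, 10.37 and 9.88. Plac8 returned to near its growth medium level and the other two ended below theirs. Glipr2 read 11.36, 12.10, 9.95 and 10.59, the imprinted gene Mest 9.89, 10.71, 9.95 and 9.98 and Tcim 8.89, 10.04, 9.32 and 9.19. A second Glipr2 probe set read 11.16, 11.41, 9.80 and 10.07, with the same fall and a smaller rise. Hmga2-ps1, a pseudogene, read 8.74, 9.49, 8.32 and 8.02 and its parent gene Hmga2 13.05, 13.12, 12.95 and 11.62, and the pseudogene's values are uncertain because its probe set may read the parent transcript. The others were Fam189b, Crybg1, Itprid2, Cavin3, Ndrg2, Hcfc1r1, Wwp2, Lgals9, Anxa4, Mgarp and Btbd2, with peak heights of 0.59 to 0.76.

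**Figure D2:**
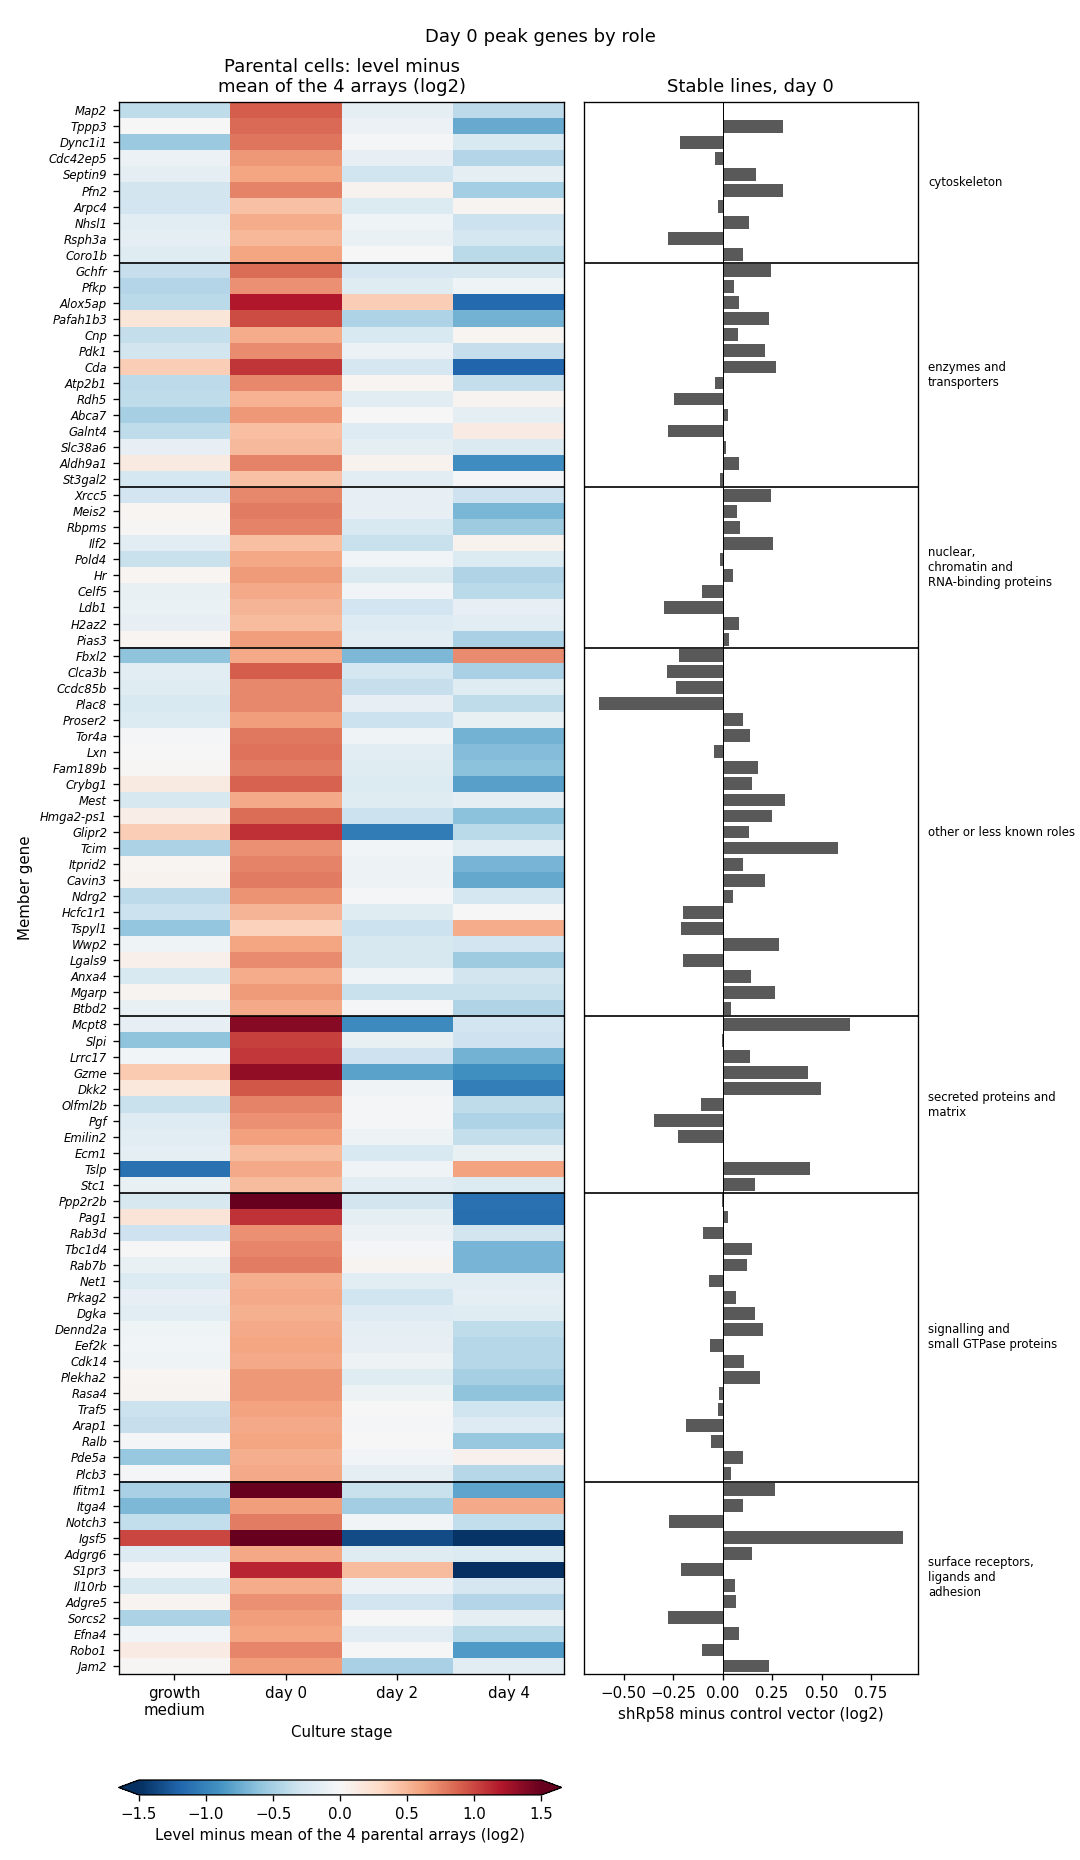
Left, colour gives each member's log2 level minus its mean over the 4 parental arrays (columns: growth medium and days 0, 2 and 4), with members grouped by role. Right, bars give shRp58 minus control vector on day 0 (log2 difference), from 0.91 for Igsf5 to -0.62 for Plac8.

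Other probe sets of the members gave a second reading of the same RNA. Of the 98 members, 50 had several probe sets, with 90 further ones in all, and 62 of these were at 8 or more on day 0. Of the 62, 58 were above both growth medium and day 2 on day 0, and 23, from 18 genes, were at least 1.5-fold above both. Of the 12294 genes, 0.846% were at least 1.5-fold above both, and the share of all probe sets above both was not computed. The 4 that were not above both belonged to Ilf2, Cdc42ep5 and Pag1, the last with 2. These counts come from the arrays that chose the members, and they describe the probes and not the repeatability of the cultures.

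By day 4 most members, like most of the 12294 genes, were near or below their growth medium level. Day 4 was not used to choose them, but the growth medium and day 2 arrays set against it were. Day 4 minus day 2 had a median of -0.23 over the members, against -0.04 over the 12294 genes, and day 4 minus growth medium had a median of -0.17, against -0.0090. At least 1.5-fold below day 2 were 15 members (15.3%), against 4.38% of the 12294 genes, and at least 1.5-fold above it were 6 (6.12%), against 2.27%. At least 1.5-fold below growth medium were 26 members (26.5%), against 13.3%, and at least 1.5-fold above it were 5 (5.1%), against 16.2%. The other 67 members (68.4%) lay within 1.5-fold of growth medium, as did most of the 12294 genes.

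The 6 members higher on day 4 than on day 2 were Fbxl2 (1.38), Itga4 (1.09), Tspyl1 (0.88), Mcpt8 (0.67), Tslp (0.66) and Glipr2 (0.65), in log2 differences. Fbxl2, Tspyl1 and Tslp were the 3 members at or above their day 0 level on day 4, and Mcpt8 and Glipr2 stayed below it. The largest further falls after day 2 were in S1pr3 (-2.06), Alox5ap (-1.54), Pag1 (-0.98), Dkk2 (-0.98) and Aldh9a1 (-0.98), an aldehyde dehydrogenase. Their other probe sets at 8 or more on day 0 gave -1.15 and -0.21 for S1pr3, 0.02 and -0.23 for Pag1 and -0.79 for Aldh9a1. Alox5ap and Dkk2 had 1 probe set each. Against growth medium, day 4 was lowest in Igsf5 (-2.47), Cda (-1.57), S1pr3 (-1.56), Pag1 (-1.33) and Gzme (-1.31). It was highest in Tslp (1.73), Fbxl2 (1.32), Itga4 (1.24), Tspyl1 (1.13) and Pde5a (0.63), a cyclic GMP phosphodiesterase. For the same difference, other probe sets at 8 or more on day 0 disagreed in Pde5a, with 0.54 and -0.56. They gave 0.96 for Itga4, 1.72 for Tspyl1, -1.10 and -0.20 for S1pr3 and -0.15 and 0.0070 for Pag1.

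**Figure D3:**
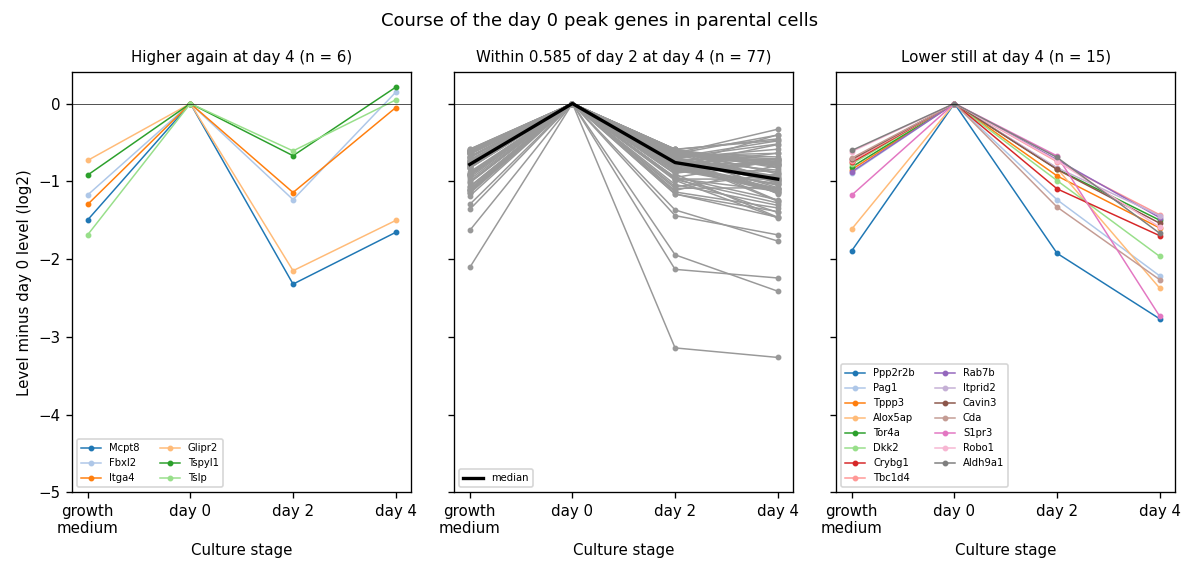
Log2 level minus the day 0 level (y axis) in growth medium and on days 0, 2 and 4 for the 98 members, 1 line per gene, in panels by day 4 minus day 2. On day 4, 6 members were at least 1.5-fold above day 2, 77 were within 1.5-fold of it and 15 were at least 1.5-fold below it.

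The stable lines are other cultures sampled on day 0. Their arrays lie on a lower scale, with a median over all probe sets of 7.15 against 8.26 to 8.27 on parental arrays, so for this comparison the 6 arrays were quantile normalized together, a step chosen after seeing the data. In shRp58 cells 57 members (58.2%) were at least 1.5-fold above both parental growth medium and parental day 2, against 2.39% of the 12294 genes, and 94 (95.9%) were above both, against 29.7%. In control-vector cells 45 members (45.9%) were at least 1.5-fold above both, against 2.34%, and 90 (91.8%) were above both, against 29%. The growth medium and day 2 arrays are those used to choose the members, so low readings there enter both the choice and these shares. Transfection, selection and array scale differ between the lines and the parental cells and cannot be told apart.

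On this common scale Ppp2r2b read 9.69 in shRp58 and 9.65 in control-vector cells, against 7.43 in parental growth medium and 7.41 on parental day 2. Ifitm1 read 11.79 and 11.50 in these lines, against 10.25 and 10.30 on the same parental arrays. Both genes stood well above the parental cells before and after day 0. Pfn2 exceeded even parental day 0 (9.45), with 11.31 in shRp58 and 10.97 in control-vector cells. The 8 members not above both parental arrays in control-vector cells were Igsf5, Mest, Pias3, Jam2, Robo1, S1pr3, Cdk14 and Tcim. Igsf5 was furthest off, 8.84 in control-vector cells against 9.55 in growth medium, and in shRp58 cells it read 9.73.

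**Figure D4:**
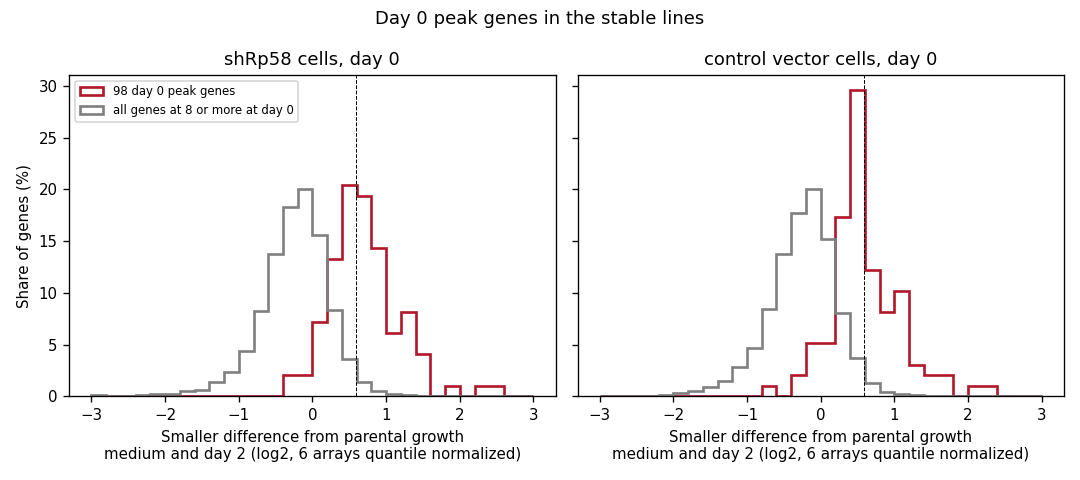
Share of genes (y axis, %) by the smaller of the log2 differences from parental growth medium and parental day 2 (x axis), for shRp58 cells (left) and control-vector cells (right), after quantile normalization of the 6 arrays. The 98 members lie to the right of the 12294 genes, with 57 members in shRp58 and 45 in control-vector cells at or past 1.5-fold.

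The comparison of shRp58 with control-vector cells asks what the Rp58 hairpin did on day 0, and shares no array with the differences that chose the members. Most members differed little, as did most genes: 87 of 98 (88.8%) were within 0.3, against 86.3% of the 12294 genes, and 0 were at least 2-fold apart, against 0.634%. The median was 0.071, against -0.01 over the 12294 genes. Above 0 were 63 members (64.3%), against 46.8%, and among the 50 that met the rule after quantile normalization within array sets, 34 (68%) were above 0 on that scale, against 54.2%. At least 1.5-fold higher in shRp58 cells were 2 members (2.04%), against 1.48%, and at least 1.5-fold lower was 1 (1.02%), against 2.07%, shares close to those of all genes.

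Igsf5 had the largest difference (0.91), with 9.07 in shRp58 cells and 8.15 in control-vector cells, and Mcpt8 the next (0.64), with 9.54 in shRp58 cells and 8.90 in control-vector cells. Tcim (0.58), Dkk2 (0.50), Tslp (0.44), Gzme (0.43), Mest (0.31) and Pfn2 (0.31) followed. Both member proteases of the chromosome 14 run are among these 8. Gzmd read 6.19 in shRp58 cells and 5.17 in control-vector cells, dim in both. The other granzymes of the run, Gzmb, Gzmc, Gzmf, Gzmg and Gzmn, were also dim and differed by -0.09 (Gzmf) to 0.15 (Gzmg). How far granzyme probe sets read each other was not tested. Plac8 had the lowest difference (-0.62), with 8.32 in shRp58 cells and 8.95 in control-vector cells. Next were Pgf (-0.35), Ldb1 (-0.30), a cofactor of LIM proteins, Clca3b (-0.28), Rsph3a (-0.28), Galnt4 (-0.28), Sorcs2 (-0.27) and Notch3 (-0.27). The second Notch3 probe set gave -0.72, a larger difference in the same direction.

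Of the 6 members with the largest peaks, Mcpt8 differed between the lines as given above, and the other five were within 1.5-fold. Ppp2r2b read 9.02 in shRp58 cells and 9.02 in control-vector cells, Slpi 9.89 in shRp58 cells and 9.90 in control-vector cells, and Itga4 8.91 in shRp58 cells and 8.81 in control-vector cells. Ifitm1 read 11.20 in shRp58 cells and 10.94 in control-vector cells, and Fbxl2 9.13 in shRp58 cells and 9.35 in control-vector cells. Ifitm1 was higher and Fbxl2 lower in shRp58 cells. Across the 98 members, the hairpin difference and day 0 minus day 2 had a Pearson r of 0.472 and a Spearman rho of 0.323, and r was 0.336 without Igsf5. The hairpin difference and day 0 minus growth medium had an r of 0.0454 and a rho of -0.0674. Over the 12294 genes the r values were 0.687 and -0.515, and the rho values 0.478 and -0.465. These describe genes, which are not independent replicates, and the choice of members narrows the range of both time course differences.

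**Figure D5:**
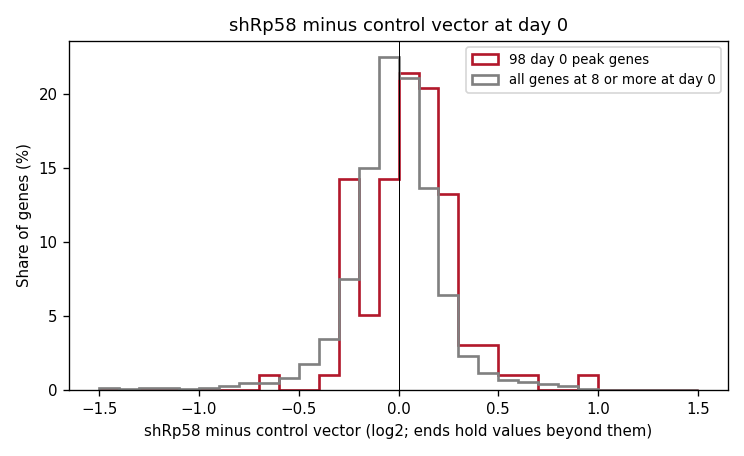
Share of genes (y axis, %) by shRp58 minus control vector on day 0 (x axis, log2 difference), for the 98 members and for the 12294 genes at 8 or more on day 0. The members span -0.62 (Plac8) to 0.91 (Igsf5), with most of them near 0.

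Of 639 genes in 19 lists for muscle, adhesion, signalling, the cell cycle and metabolism, 8 were members, against 98 of the 18194 genes measured. The 8 were Jam2, Itga4, Cdc42ep5, Robo1, Map2, Dkk2, Notch3 and S1pr3. The other 90 members were in no list, as are most of the 18194 genes measured. Of 23 early contractile genes, 18 were at least 1.5-fold above growth medium on day 0, against 11.5% of the 12294 genes, and 21 were at least 1.5-fold below day 2, against 5.92%. Of 29 mitosis genes, 0 were at least 1.5-fold above growth medium, against 11.5% of the 12294 genes. At least 1.5-fold above day 2 were 29, against 8.88%. The lists were chosen with earlier results of these data known, so these shares are descriptions and no test.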

How the data were processed

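Per the series' design text, the authors hybridised 10 µg of cRNA per sample to Affymetrix mouse 430 2.0 arrays and quantified them with RMA, and the deposited log2 values cover 45101 probe sets. Which software ran it, or whether all arrays went through 1 run, is not given in the sources used here. Groups came from sample titles. The platform annotation gave 1 gene to 34958 probe sets, which were used, several to 932 and none to 9211. All 98 members matched RefSeq by Entrez ID. The members and the gene lists were chosen with earlier results of these data known, and roles were assigned after values were seen.

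Log2 differences were described without a test, beside the same over 12294 genes (Python 3.11.15, pandas 2.3.3, numpy 2.4.6). The code of the rule was run on simulated arrays with small noise and no scale difference between arrays. That run says nothing of how scaling or culture differences shift the gene set. Genes to name were the 25 largest peak heights, the 8 largest and 8 smallest hairpin differences, the 5 largest and 5 smallest of day 4 minus day 2, 3 genes on either side of the limit, and members in a list. Other genes given values were chosen after their values were seen. Alternatives covered probe set choice, level, limit and scaling.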

Additional observations from a re-analysis of the deposited data

How the results depend on the processing

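The number of day 0 peak genes was 98 as reported, 50 after quantile normalization within array sets, and, in alternatives added after seeing the data, 51 after quantile normalization of all 6 arrays and 41 after centring on genes with a mean of at least 8. Limits of 1 and 0.4 gave 10 and 372 genes. Members above 0 in shRp58 minus control vector numbered 34, 35 and 26 under those 3 scalings and 6 and 228 under those limits, where the set itself is of another size. Members at least 1.5-fold above growth medium at day 4 numbered 3 after the last centring, 2 and 26 under the limits, and 12 with the median over probe sets. With the median over probe sets, which shared 68 genes with the 98, the median of day 4 minus day 2 was -0.10, and with centring on genes with a mean of at least 8 the median of day 4 minus growth medium was -0.071. The median of shRp58 minus control vector was 0.071 as reported and 0.030 to 0.109 over the alternatives, lowest with the median over probe sets, where 60 of 111 genes (54.1%) were above 0. In the other combinations of result and alternative, counts stayed within 1.5 times and medians within 0.1, and no median changed sign in any of the 10 alternatives. No paired analysis was possible because each group held 1 array. Without replicates the error of each value is unknown, and 7 members in growth medium and 8 at day 2 read below 8, where probe sets are dim.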

Other observations

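Relatives and partners of members, chosen after their values were seen, are given in the order growth medium, day 0, day 2 and day 4. Of the phosphofructokinases, the muscle form Pfkm read 10.72, 11.55, 12.96 and 13.56 and climbed throughout, while the liver form Pfkl read 12.41, 12.95, 11.53 and 11.17 and was highest on day 0 without reaching the limit over growth medium. Of the pyruvate dehydrogenase kinases, Pdk2 read 8.53, 8.93, 9.47 and 9.53, Pdk3 10.59, 10.73, 10.15 and 9.91 and Pdk4 11.37, 10.24, 10.85 and 9.63. Pdk4 was lower on day 0 than on either side, where the member Pdk1 was higher.

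Itgb1, a partner chain of Itga4, read 12.16, 12.68, 13.00 and 13.18, and Vcam1, a ligand of Itga4, 10.96, 11.69, 12.23 and 11.83. Neither had its high point on day 0. Itgb7, another partner chain of Itga4, read 9.22, 9.45, 8.78 and 8.50. It was highest on day 0 without reaching the limit over growth medium. Slit2, a ligand of Robo1, read 9.30, 10.94, 11.34 and 11.44, with a further increase after day 0. S1pr1 read 9.76, 10.39, 10.05 and 9.93. It was highest on day 0, past the limit over growth medium (0.62) but short of it over day 2 (0.34). S1pr2 read 11.74, 11.46, 11.48 and 11.34 and was highest in growth medium. Notch1 read 10.996, 11.57, 10.69 and 10.48, just short of the limit over growth medium.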
